A study of Arabidopsis thaliana with 21 samples.

Results

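Gene expression in a plant that carries the mutations ada2b-c and ada2a together was set against the wild type, in 30-day-old Arabidopsis thaliana. RNA sequencing gave 3 libraries of the ada2b-c-/-ada2a-/- genotype, called the double mutant here, and 3 libraries of Col-0, the wild-type accession. All 6 come from a table of 21 libraries that also holds gcn5-/-, ada2a-/- and spc-/- single mutants, 3 libraries each. It further holds 3 libraries of ada2b-c-/-, which shares 1 of the 2 mutations, and 3 of the other double mutant, ada2b-c-/-spc-/-. Both were contrasted directly with the double mutant to show where it differs from them. No transgene or treatment is named for any of these groups. The sources used here do not give the kind of mutation behind any of the alleles, what the c of ada2b-c stands for, or the gene that spc affects. Plants spent 12 days on plates of Murashige and Skoog medium and the rest in soil, in a photoperiod of 16 h at 22 °C. The material is labelled seedlings. Of 32548 genes in the table, the 23290 with a mean of at least 1 over the 21 libraries were tested, and 593 of 609 genes on 29 lists of pathways, complexes and cell type markers were among them.

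GCN5 is a histone acetyltransferase that adds acetyl groups to the tail of histone H3 and works inside larger complexes, the best known of which is SAGA. The ADA2 adaptor proteins bind GCN5 and raise its activity on nucleosomes. Arabidopsis has the paralogues ADA2A and ADA2B, and plants without ADA2B or GCN5 are known for dwarf growth, altered flowers and altered responses to light, cold and hormones.

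Values are the signal per gene as deposited, which the authors had adjusted between libraries. Signal is not divided by transcript length, so it was compared between libraries and not between genes. The depth of sequencing is unknown from such values, and no counting interval can be given. A change is the difference of mean log2(signal + 1), the double mutant minus Col-0 unless another genotype is named, with its standard error (SE), and the added 1 understates changes of genes with low signal. A gene was called higher or lower at an adjusted p under 0.05 in limma, with Benjamini-Hochberg adjustment over all 23290 genes. The labels do not tell whether the 3 libraries of each genotype stem from different plants. The p-values therefore reflect the spread between libraries, pooled over all genotypes of the table, which may be technical. That spread differed between genotypes. For genes with a mean of at least 30, the median SD of log2(signal + 1) ran from 0.10 in ada2b-c to 0.44 in spc. It was 0.17 in the double mutant and 0.24 in Col-0. Brackets after a gene's signal give its change ± SE and adjusted p. For a gene listed at 0 in every library of a group no size of change is given. In bulk RNA, fewer cells of a type and less RNA per cell cannot be told apart.

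ADA2A (AT3G07740, chromosome 3, 2469783 to 2473079 in TAIR10.1) had a signal of 7.35, 1.49 and 1.6 in the double mutant, against 77.9, 80.5 and 42.3 in Col-0. The groups do not overlap, and the change was -4.11 ± 0.48, adjusted p = 3.9e-07. ADA2B was not called, at 369, 261 and 338 in the double mutant, against 737, 403 and 341 in Col-0, values that meet at the upper end of the double mutant and the lower end of Col-0 (change -0.54 ± 0.39, adjusted p = 0.24). Both fits that adjust for transcript length called it lower, by -0.89, adjusted p = 0.0086, and -2.72, adjusted p = 4.5e-06. GCN5 stood at 624, 433 and 527 in the double mutant, against 429, 332 and 353 in Col-0, without overlap, and was called higher by 0.5 ± 0.21, adjusted p = 0.044. That call was lost once transcript length was taken into account, with a change of -0.12. Of the 19 subunits of GCN5-containing complexes, 8 were called higher and 4 lower, where 30.4% of all tested genes were called higher and 32.1% lower. The adjusted fits called 12 and 2 of them higher, and all 3 fits shared 1 higher call, TAF12B, and 1 lower call, ADA2A. Leading the higher ones in the plain fit was TAF6B, a TATA-binding-protein associated factor, at 1869.6, 1724 and 1764 in the double mutant, against 514, 452 and 228 in Col-0 (2.25 ± 0.33, adjusted p = 6.7e-06). TAF12B, another factor of that family, had 1276, 1849.7 and 1286 in the double mutant, against 244, 467 and 288 in Col-0 (2.17 ± 0.26, adjusted p = 6.5e-07). AT5G58575, annotated as a SAGA-associated factor, reached 711, 687 and 601 in the double mutant, against 249, 191 and 186 in Col-0 (1.68 ± 0.24, adjusted p = 6.5e-06). Where the fit held a term for length, TAF6B changed by 0.77, adjusted p = 0.13, and AT5G58575 by 0.51, adjusted p = 0.14, so neither was called. Besides ADA2A, lower calls were SGF29A, TAF10 and AT3G27100, with changes of -0.94, -0.57 and -0.82, and each of these 3 had a positive change after the correction for length and GC content (0.19, 0.56 and 0.24).

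Transcript length moved with the comparison. Of genes with transcripts under 1000 bp, 9.94% were called higher and 40.3% lower. Between 1000 and 2000 bp these shares were 19.5% and 41.6%, between 2000 and 3000 bp 49.2% and 17.9%, and from 3000 bp on 80.3% and 3.38%. Relative to each gene's mean over the 21 libraries, signal also leaned towards long transcripts in the double mutant. Its length slope was 0.79 ± 0.13, against -0.40 ± 0.21 in Col-0 (log2 signal per log2 of length, SD over 3 libraries). Column totals ran, in units of 1e+06, from 28.6 to 31.7 in the double mutant and from 39.3 to 40.4 in Col-0. Every comparison was therefore fitted again after a smooth curve over length and GC content had been subtracted from each library, called the correction here, and once more with each library's length slope as a covariate. Genes given the same call by all 3 fits numbered 1957 higher, 8.4% of those tested, and 3258 lower, 14.0%. A call outside that set was not shared by every fit. The slopes of the 2 genotypes lie apart, so a call lost with the covariate can come from a wider error as well as a smaller change. ADA2A, for example, changed by -4.11 in the plain fit and by -4.235 with the covariate, while its adjusted p went from 3.9e-07 to 3.3e-04. Scaling all columns to 1 total moves the median change of all genes from -0.05 to 0.33.

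**Figure D1:**
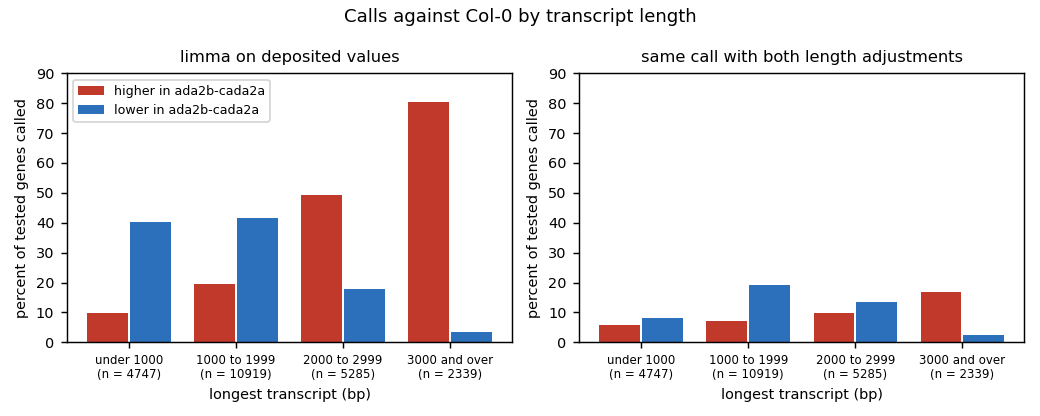
Share of tested genes called higher or lower in the double mutant than in Col-0, by transcript length in base pairs, in the plain fit and in all 3 fits together. Calls to higher signal go up with length, to 80.3% from 3000 bp on, and 16.8% of those long genes were called higher in all 3 fits.

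In all, 7085 genes (30.4%) were called higher in the double mutant than in Col-0 and 7485 (32.1%) lower. Libraries of the 2 genotypes did not overlap, with the double mutant higher, in 35.1% of tested genes, and with it lower in 38.6%. Of the genes named here and called against Col-0, the only ones with overlapping libraries were LFY, AT1G68875 and ATA7. The size of change reached 1 on the log2 scale for 5713 of the higher and 5527 of the lower ones. Of genes called higher, 245 were listed at 0 in every Col-0 library, and of genes called lower, 357 were listed at 0 in every library of the double mutant. The correction turned 337 higher calls and 233 lower calls into calls of the opposite direction, and called 31.6% of genes higher and 26.9% lower. Of the 241 genes chosen for naming, 9 share more than 25% of their exon bases with a gene on the other strand, and strandedness is not given, so their signal may include the partner's. These are LHCB2.3, CKX1, CO, SMZ, HTA12, BOA, MBF1C, GAT1_2.1 and COR15B. Another 9 have a transcript at least 93% identical over at least 50% of its length elsewhere in the genome, among them LHCB2.1 and LHCB2.2, LHCB1.3 and LHCB1.2, and CDC20.1 and CDC20.2, and how reads were split between such copies is not given.

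**Figure D2:**
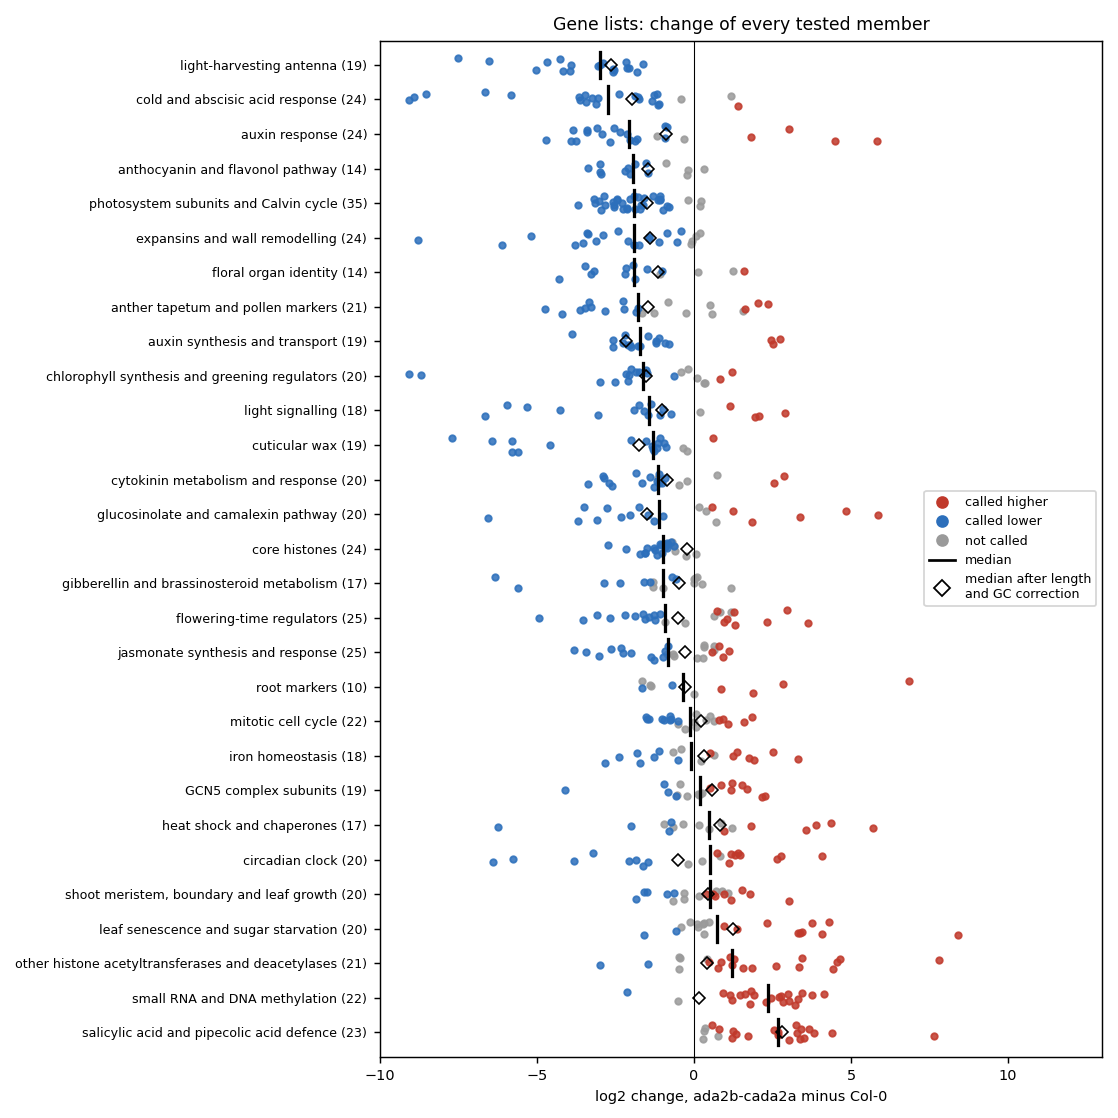
Change of every tested member of the 29 lists, as log2 of double mutant minus Col-0, with calls in colour, the list's median as a bar and the median after the length and GC correction as a diamond. The antenna list lies lowest, with a median of -3.0, and the salicylic acid list highest, with 2.67.

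Genes for capturing light were lower in the double mutant throughout. The light-harvesting antenna proteins bind chlorophyll and pass energy to the photosystems. All 19 tested members of 20 were called lower, in all 3 fits, which called 14.0% of all tested genes lower. The median change was -3.0, beside -0.05 for all tested genes. Summed over the list, signal ran from 675029 to 920552 in the double mutant and from 5500163 to 6008102 in Col-0. LHCB2.3, a trimer subunit of the photosystem II antenna, fell furthest. Its signal was 333, 279 and 279 in the double mutant, against 57764, 51680.5 and 52735 in Col-0, without overlap, a change of -7.51 ± 0.16, adjusted p = 1.1e-17. An annotated gene on the other strand, AT3G27700, covers 40.6% of its exon bases and had a mean of 1474 in the double mutant and 307 in Col-0. LHCB2.1 had 2249, 2783 and 2278 in the double mutant, against 246974, 240681 and 193318 in Col-0 (-6.54 ± 0.15, adjusted p = 3.7e-17). LHCB2.2, its near-identical copy, had 3348, 3709.5 and 3026 in the double mutant, against 122615, 111136 and 94065 in Col-0 (-5.02 ± 0.17, adjusted p = 4.1e-14). LHCB3, another subunit of the trimers, had 15984, 20670 and 14505 in the double mutant, against 424685, 441662 and 420638 in Col-0 (-4.67 ± 0.18, adjusted p = 1.3e-13).

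The largest losses of signal in absolute terms were also antenna genes. LHCB1.3 had 273567, 372535 and 250384 in the double mutant, against 1228236, 1477447 and 1310088 in Col-0 (-2.18 ± 0.23, adjusted p = 1.1e-07). LHCB1.4 had 23724, 28029 and 21343 in the double mutant, against 434069, 445147 and 422389 in Col-0 (-4.16 ± 0.2, adjusted p = 1.5e-12), and LHCB1.2 30082, 42829 and 27514 in the double mutant, against 447218, 528562 and 504777 in Col-0 (-3.91 ± 0.23, adjusted p = 3.3e-11). In photosystem I, whose antenna holds LHCA4, this gene had 63971, 73284 and 53481 in the double mutant, against 543066, 561405 and 461213 in Col-0 (-3.04 ± 0.17, adjusted p = 1.6e-11). Subunits of the photosystems and enzymes of the Calvin cycle were lower in 32 of 35 cases and higher in none, with a median of -1.92 and 29 lower in all 3 fits. The largest changes were in small subunits of photosystem I and in PSBW of photosystem II. PSAN, on the lumen side, had 10864, 12427 and 11189 in the double mutant, against 127218, 166058 and 154034 in Col-0 (-3.69 ± 0.28, adjusted p = 1.1e-09). PSAK, which helps to attach the antenna, had 15347, 17189.7 and 18127 in the double mutant, against 138857, 147151 and 173754 in Col-0 (-3.18 ± 0.22, adjusted p = 3.3e-10). PSAO changed by -3.15 ± 0.17, adjusted p = 1.4e-11 and PSBW by -3.04 ± 0.26, adjusted p = 6.5e-09, again without overlap.

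**Figure D3:**
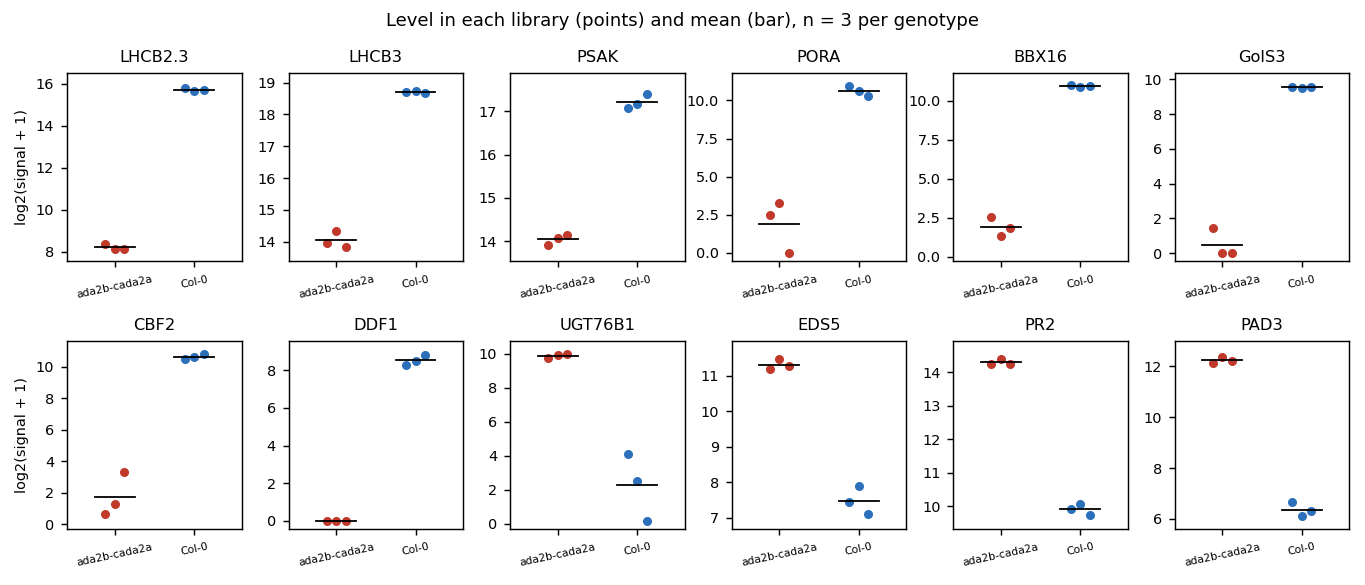
Level of 12 leading genes as log2(signal + 1) in each of the 3 ada2b-cada2a libraries and each of the 3 Col-0 libraries (points), with the mean as a bar. In each panel the points of the 2 genotypes lie apart, with ada2b-cada2a lower from LHCB2.3 to DDF1 and higher for UGT76B1, EDS5, PR2 and PAD3.

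The upstream sequence of 2 of these genes is shown because it holds elements known from light-regulated promoters. Windows are the 250 bases before the annotated start on the gene's strand in the RefSeq TAIR10.1 genome, 5′ to 3′. Motifs were searched on both strands. They were the G-box CACGTG, the I-box GATAAG, the W-box TTGACC or TTGACT, the core of the dehydration-responsive element (DRE) CCGAC, and the evening element AAAATATCT. Capitals mark the G-box of LHCB2.3 (chr3:10255656-10255905, plus strand) and the I-box of PSAK, read on the other strand (chr1:10721933-10722182, plus strand).
LHCB2.3: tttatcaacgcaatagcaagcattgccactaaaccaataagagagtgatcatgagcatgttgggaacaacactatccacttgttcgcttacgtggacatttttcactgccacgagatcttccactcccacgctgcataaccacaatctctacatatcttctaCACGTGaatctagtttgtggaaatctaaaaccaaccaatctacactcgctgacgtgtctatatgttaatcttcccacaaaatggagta
PSAK: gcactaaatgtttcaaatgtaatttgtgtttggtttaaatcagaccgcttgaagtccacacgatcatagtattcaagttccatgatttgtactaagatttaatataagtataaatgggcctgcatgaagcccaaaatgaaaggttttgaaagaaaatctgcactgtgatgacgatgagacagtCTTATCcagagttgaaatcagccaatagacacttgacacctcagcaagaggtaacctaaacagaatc
A G-box lay in 21.1% of 19 antenna windows and in 7.01% of the 23289 windows of all tested genes with one. An I-box lay in 34.3% of 35 windows of the photosystem and Calvin cycle list and in 12.5% of all windows. These are descriptions of letters and say nothing of which factor binds.

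Regulators and enzymes of greening went the same way, with exceptions. Of 20 members, 13 were called lower and 2 higher (median -1.63), of which 12 lower and 1 higher in all 3 fits. BBX16, a B-box zinc finger protein, had 4.82, 1.52 and 2.52 in the double mutant, against 2042, 1935 and 2034 in Col-0, a change of -9.07 ± 0.51, adjusted p = 1.8e-11. PORA, the protochlorophyllide oxidoreductase best known from dark-grown seedlings, had 4.66, 8.48 and 0 in the double mutant, against 1956, 1537 and 1249 in Col-0 (-8.69 ± 0.73, adjusted p = 5.2e-09). GLK2 and GLK1 are transcription factors that activate antenna and chlorophyll genes. Signal of GLK2 was 1136, 1081 and 1202 in the double mutant, against 7157, 9839.8 and 10479 in Col-0 (-2.99 ± 0.22, adjusted p = 9.1e-10). GLK1 had 1415, 1099 and 1278 in the double mutant, against 7408, 7408 and 6629.6 in Col-0 (-2.5 ± 0.16, adjusted p = 8.8e-11), and neither overlapped. In the other direction CGA1, a GATA factor that promotes chloroplast development, had 162, 167 and 197 in the double mutant, against 58.8, 64.7 and 108 in Col-0 (1.22 ± 0.31, adjusted p = 0.0022). BBX14 had 13161, 13388 and 13054 in the double mutant, against 7896, 7086 and 7347 in Col-0 (0.83 ± 0.17, adjusted p = 3.1e-04), a call not made by all 3 fits.

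Genes of salicylic acid defence were higher. Salicylic acid and N-hydroxypipecolic acid are the signals of resistance to biotrophic pathogens. Of 23 tested members 19 were called higher and none lower, 14 of them in all 3 fits (8.4% of all tested genes). The median was 2.67, and 2.79 after the correction. With the length slope as a covariate it was 1.77, and 16 members were called higher. UGT76B1, a glycosyltransferase acting on salicylic and N-hydroxypipecolic acid, had 859, 971 and 989 in the double mutant, against 15.8, 4.73 and 0.12 in Col-0 (7.62 ± 0.58, adjusted p = 1.4e-09). PR2, a secreted glucanase and marker of the response, had 19474, 21746 and 19491 in the double mutant, against 972, 1078 and 855 in Col-0 (4.39 ± 0.22, adjusted p = 3.0e-12). ALD1, which starts the synthesis of pipecolic acid, had 365, 458 and 458 in the double mutant, against 70.2, 19.9 and 24.6 in Col-0 (3.66 ± 0.47, adjusted p = 1.5e-06). EDS5 exports the precursor of salicylic acid from the chloroplast. Its signal was 2326, 2826 and 2479 in the double mutant, against 173, 238 and 136 in Col-0, without overlap, a change of 3.83 ± 0.23, adjusted p = 4.9e-11. The EDS5 window is shown for its W-boxes, the core bound by WRKY factors, which stand in capitals (chr4:18185187-18185436, plus strand).
EDS5: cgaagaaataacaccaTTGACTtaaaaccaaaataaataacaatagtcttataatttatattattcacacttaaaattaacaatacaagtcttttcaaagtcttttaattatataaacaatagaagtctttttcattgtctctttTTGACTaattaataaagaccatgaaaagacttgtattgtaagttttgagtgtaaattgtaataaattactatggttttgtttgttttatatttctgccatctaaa
A W-box lay in 17.4% of the 23 windows of this list, in 28.4% of all windows and in 32.0% of those of genes called higher.

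Camalexin, an indole phytoalexin, has its last steps catalysed by PAD3, and this gene had 4464, 5306 and 4660.2 in the double mutant, against 101, 68.2 and 78.7 in Col-0 (5.86 ± 0.26, adjusted p = 6.8e-13). CYP71A13, an earlier enzyme of the route, had 520.5, 615 and 561 in the double mutant, against 22.4, 21.8 and 13.4 in Col-0 (4.84 ± 0.26, adjusted p = 1.2e-11). Both rose within a list of glucosinolate and camalexin genes of which 11 of 20 were called lower and 6 higher. Calls over all tested genes were 32.1% lower and 30.4% higher. All 11 lower calls and 4 of the higher ones stood in all 3 fits, without MYB51 and MYB122. The other higher members belong to the indole branch. They were the regulators MYB51 (0.58) and MYB122, listed at 0 in Col-0 and at 4.28, 13.2 and 13.8 in the double mutant, and the enzymes CYP79B2 (1.25 ± 0.18, adjusted p = 7.4e-06) and CYP83B1 (1.86 ± 0.22, adjusted p = 5.3e-07). Regulators of the aliphatic branch fell. MYB29 had 11.6, 13.1 and 9.3 in the double mutant, against 1149, 1163 and 1185 in Col-0 (-6.57 ± 0.41, adjusted p = 6.6e-11), and MYB76 12.9, 8.23 and 0 in the double mutant, against 54.5, 64.6 and 73 in Col-0 (-3.68 ± 0.88, adjusted p = 0.0012).

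Jasmonate genes were lower in 12 of 25 cases and higher in 4, and 7 lower and 2 higher in all 3 fits. Beside them, all tested genes were 32.1% lower and 30.4% higher, and 14.0% and 8.4% in all 3 fits. The correction called 11 jasmonate genes lower and 8 higher, where it called 26.9% and 31.6% of all genes. It moved the list's median from -0.82 to -0.28. Synthesis enzymes led the lower ones. AOS, allene oxide synthase, had 1644, 1634 and 1699 in the double mutant, against 16366, 18539 and 18911 in Col-0 (-3.43 ± 0.19, adjusted p = 1.5e-11). AOC1 and AOC2, allene oxide cyclases, changed by -3.82 ± 0.19, adjusted p = 4.0e-12 and -2.66 ± 0.23, adjusted p = 6.8e-09. VSP2, a response marker, had 247, 223 and 249 in the double mutant, against 2619, 1903 and 1504 in Col-0 (-3.03 ± 0.29, adjusted p = 3.6e-08). Higher calls went to OPR3, the reductase that follows the cyclases (0.57 ± 0.16, adjusted p = 0.0041), to the repressor JAZ1 (0.92 ± 0.3, adjusted p = 0.011), to the defensin PDF1.2A (1.12 ± 0.36, adjusted p = 0.011) and to HEL, a pathogenesis-related protein (0.8 ± 0.33, adjusted p = 0.043). OPR3 and JAZ1 were not called with the length slope as a covariate, with changes of 0.07 and -0.17. In the anthocyanin and flavonol list 10 of 14 were lower and none higher, 4 in all 3 fits. FLS1, flavonol synthase, had 93.1, 88.2 and 73.3 in the double mutant, against 737, 672 and 590.5 in Col-0 (-2.96 ± 0.28, adjusted p = 2.5e-08), and the regulators MYB12, PAP1 and PAP2 changed by -3.39, -3.01 and -2.98, but were not called in all 3.

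Cold and abscisic acid genes were lower in 21 of 24 cases and higher in 1, with a median of -2.73, and 18 were lower in all 3 fits. CBF factors bind the DRE of cold-regulated genes. CBF2 had 0.551, 1.48 and 8.89 in the double mutant, against 1435, 1595 and 1809.9 in Col-0 (-8.9 ± 0.59, adjusted p = 1.6e-10). CBF3 had 10.8, 7.15 and 14.7 in the double mutant, against 1179, 1146 and 1102 in Col-0 (-6.64 ± 0.4, adjusted p = 5.0e-11). DDF1, a related factor, was listed at 0 in all 3 libraries of the double mutant and had 311, 363 and 447 in Col-0. GolS3, a galactinol synthase that is a known CBF target, had 1.67, 0 and 0 in the double mutant, against 764, 723 and 745 in Col-0 (-9.07 ± 0.54, adjusted p = 4.0e-11). GolS2, another galactinol synthase, had 2.26, 2.41 and 3.45 in the double mutant, against 1603, 1733 and 1823 in Col-0 (-8.87 ± 0.36, adjusted p = 2.1e-13). COR15B, which protects chloroplast membranes in the cold, had 579, 580.2 and 617 in the double mutant, against 4615, 6323 and 6189.8 in Col-0 (-3.25 ± 0.19, adjusted p = 3.0e-11), and none of these groups overlapped. The sole higher call was ABI5, a bZIP factor of abscisic acid signalling, at 112, 136 and 98 in the double mutant, against 36.4, 46.1 and 46.5 in Col-0 (1.4 ± 0.36, adjusted p = 0.0022). The GolS3 window carries the DRE core at 2 positions, in capitals, both read on the other strand (chr1:3019389-3019638, plus strand).
GolS3: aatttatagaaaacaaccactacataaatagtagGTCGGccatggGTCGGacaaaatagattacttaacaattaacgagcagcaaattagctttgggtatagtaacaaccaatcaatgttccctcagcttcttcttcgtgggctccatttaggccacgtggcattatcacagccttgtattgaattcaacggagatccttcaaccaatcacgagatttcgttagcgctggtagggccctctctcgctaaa
The DRE core lay in 29.2% of 24 windows of this list and in 12.7% of all windows.

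The plant surface and the cell wall showed losses too. Wax genes were lower in 16 of 19 cases and higher in 1, with 14 lower in all 3 fits. LTP4, a lipid transfer protein, had 6.56, 22.4 and 14.5 in the double mutant, against 2592, 2903 and 3398 in Col-0 (-7.72 ± 0.52, adjusted p = 1.9e-10). MAH1, which makes secondary alcohols and ketones of wax, had 41.1, 50.9 and 27.1 in the double mutant, against 3541, 3121 and 3542 in Col-0 (-6.43 ± 0.41, adjusted p = 8.9e-11). CER4, the reductase that yields primary alcohols, had 25.8, 19.5 and 15.2 in the double mutant, against 1248, 1041 and 1138 in Col-0 (-5.78 ± 0.29, adjusted p = 4.4e-12), and WSD1, a wax ester synthase, had 17.2, 14.7 and 11.8 in the double mutant, against 877, 829 and 877 in Col-0 (-5.81 ± 0.47, adjusted p = 2.8e-09). MYB94, an activator of wax synthesis, was called higher by 0.61 ± 0.22, adjusted p = 0.021, though not in all 3 fits. Expansins and wall-remodelling enzymes were lower in 20 of 24 cases and higher in none, 16 of them in all 3 fits. EXLB1 was listed at 0 in the double mutant and had 367, 400.2 and 586 in Col-0. The xyloglucan enzymes XTH17 and XTH6 and the expansin EXPB1 fell. XTH6 had 880.2, 832 and 789.6 in the double mutant, against 10642, 11152 and 13092 in Col-0 (-3.8 ± 0.13, adjusted p = 4.1e-14). EXPB1 had 18, 11.3 and 14.5 in the double mutant, against 529.7, 612 and 533 in Col-0 (-5.18 ± 0.52, adjusted p = 5.9e-08), and XTH17 changed by -6.12 ± 0.67, adjusted p = 2.0e-07.

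Most auxin genes were lower, with exceptions among the GH3 and YUC enzymes. Of 24 response genes 18 were lower and 4 higher, where 32.1% of all tested genes were called lower and 30.4% higher. All 4 higher ones encode GH3 enzymes, which conjugate auxin to amino acids. GH3.2 had 409, 529.9 and 423 in the double mutant, against 27.5, 13.9 and 0.184 in Col-0 (5.83 ± 0.7, adjusted p = 6.5e-07). GH3.3 had 1346, 1970.5 and 1432 in the double mutant, against 80.1, 93.1 and 43.4 in Col-0 (4.48 ± 0.43, adjusted p = 3.1e-08). GH3.5 and GH3.6 changed by 3.03 ± 0.28, adjusted p = 1.6e-08 and 1.83 ± 0.21, adjusted p = 3.6e-07, and all 4 were higher in all 3 fits. GH3.1, the fifth GH3 gene of the list, was not called, at 0, 1.74 and 0 in the double mutant, against 4.24, 4.53 and 0.0619 in Col-0. Among short transcripts of the list, IAA6, an auxin-induced repressor, had 2.76, 11.7 and 9.45 in the double mutant, against 160.3, 218 and 247 in Col-0 (-4.7 ± 0.6, adjusted p = 1.2e-06), and SAUR23, of the small auxin up RNA family, had 59.5, 82.6 and 64 in the double mutant, against 798, 1196 and 1159 in Col-0 (-3.91 ± 0.43, adjusted p = 1.9e-07). Of the 18 lower calls 11 stood in all 3 fits, and the correction moved the list's median from -2.08 to -0.9, with a median transcript of 1131 bp. Among 19 genes of auxin synthesis and transport 16 were lower and 3 higher, and 13 lower and 1 higher in all 3 fits. The influx carriers LAX1 and LAX3 fell. LAX1 had 524, 441 and 517 in the double mutant, against 2807, 2817 and 3262 in Col-0 (-2.58 ± 0.17, adjusted p = 1.7e-10). LAX3 had 191, 140 and 246 in the double mutant, against 966, 1109 and 1297 in Col-0 (-2.57 ± 0.21, adjusted p = 4.4e-09). PIN5, a carrier of the endoplasmic reticulum, had 9.33, 9.85 and 6.73 in the double mutant, against 111, 160.1 and 149.5 in Col-0 (-3.87 ± 0.59, adjusted p = 1.2e-05). The YUC monooxygenases of auxin synthesis were split. YUC1, YUC3 and YUC4 were the 3 higher calls of the list, and the other 5 tested YUC genes were lower. YUC4 had 48.5, 82.7 and 64.9 in the double mutant, against 7.51, 7.01 and 12.1 in Col-0 (2.75 ± 0.64, adjusted p = 8.8e-04), the other two 2.5 and 2.45 as changes, and YUC4 alone of the 3 was called in all 3 fits. YUC2, YUC5, YUC6, YUC8 and YUC9 changed by -2.28, -2.04, -1.47, -2.02 and -1.78, with YUC5, YUC8 and YUC9 called in all 3 fits.

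Cytokinin genes were lower in 14 of 20 cases and higher in 2, and 5 lower and 1 higher in all 3 fits. Of all tested genes, 32.1% were called lower and 30.4% higher, and 14.0% and 8.4% in all 3 fits. The median of the cytokinin list was -1.16 in the plain fit. It was -0.45 with the length slope as a covariate, which called 6 members lower. Type-A response regulators, which cytokinin induces and which damp its signal, led the list. ARR9 had 271, 233 and 208 in the double mutant, against 1358, 1862 and 2107 in Col-0 (-2.88 ± 0.31, adjusted p = 1.4e-07). ARR15 had 38.6, 49.1 and 42.7 in the double mutant, against 240.4, 331 and 429.6 in Col-0 (-2.88 ± 0.33, adjusted p = 4.0e-07), and ARR3 changed by -3.38 ± 0.69, adjusted p = 2.7e-04. The higher calls were LOG5, an activating enzyme (2.86 ± 0.49, adjusted p = 4.4e-05), and CKX1, a degrading one (2.55 ± 0.56, adjusted p = 5.7e-04). CKX1 and ARR3 were not called in all 3 fits. Gibberellin and brassinosteroid genes were lower in 8 of 17 cases and higher in none. In all 3 fits 4 of them were lower, beside 14.0% of all tested genes. GA2OX1 and GA2OX6, which inactivate gibberellins, and BR6OX1 and BR6OX2, oxidases late in brassinosteroid synthesis, led it. GA2OX1 had 0, 4.37 and 0 in the double mutant, against 142, 142 and 139.6 in Col-0 (-6.34 ± 0.75, adjusted p = 5.2e-07), and BR6OX1 had 3.36, 0 and 0 in the double mutant, against 63.1, 87.5 and 88.6 in Col-0 (-5.61 ± 0.68, adjusted p = 6.8e-07). GA2OX6 and BR6OX2 changed by -2.87 ± 0.27, adjusted p = 2.0e-08 and -2.35 ± 0.19, adjusted p = 2.2e-09.

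Of 25 tested flowering-time regulators 12 were lower and 8 higher, and 6 lower and 4 higher in all 3 fits. Beside them, 32.1% of all tested genes were called lower and 30.4% higher. SPL9, a promoter of the adult phase and of flowering, had 85.2, 102 and 70.7 in the double mutant, against 638, 771 and 793 in Col-0 (-3.09 ± 0.22, adjusted p = 5.1e-10). TFL1, which keeps the inflorescence meristem indeterminate, had 19, 9.62 and 10.1 in the double mutant, against 119.7, 151 and 205 in Col-0 (-3.55 ± 0.37, adjusted p = 1.1e-07). SNZ, an AP2-type repressor of flowering, had 9.71, 30 and 10.9 in the double mutant, against 426, 421 and 646 in Col-0 (-4.95 ± 0.38, adjusted p = 1.2e-09), whereas its relative SMZ had 55.3, 25.7 and 49.6 in the double mutant, against 1.15, 7.95 and 7.68 in Col-0 (2.94 ± 0.62, adjusted p = 3.7e-04). AT3G54980, on the other strand, covers 30.6% of the exon bases of SMZ and had a mean of 513 in the double mutant and 109 in Col-0. CO, the photoperiod activator, had 43.2, 54 and 48.6 in the double mutant, against 2.18, 1.28 and 7.58 in Col-0 (3.64 ± 0.5, adjusted p = 3.2e-06). MAF2, MAF3 and MAF5, repressors related to FLC, changed by 1.06 ± 0.2, adjusted p = 1.3e-04, 0.73 ± 0.23, adjusted p = 0.0082 and 2.32 ± 0.31, adjusted p = 2.2e-06, and MAF3 was not called in all 3 fits. LFY and TOE2 were called higher by 1.28 ± 0.47, adjusted p = 0.023 and 0.94 ± 0.24, adjusted p = 0.002 in the plain fit, not in all 3, and TOE2 stood at -0.39 after the correction. In LFY, 1 library of the double mutant, at 9.06, lies within the range of Col-0, which ends at 12.0.

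Markers of flowers were at low signal in both groups. Summed over the floral organ list, signal was 1438 to 1594 in the double mutant and 2126 to 2610 in Col-0. Over the tapetum and pollen list it was 774 to 894 in the double mutant and 1330 to 1572 in Col-0, and over the root list 1316 to 1594 in the double mutant and 1119 to 1246 in Col-0. How much of the differences comes from the share of flowers or roots in the material was not tested. Of 14 floral organ genes 10 were lower and 1 higher, and 7 lower and 1 higher in all 3 fits. Over all tested genes the shares were 32.1% lower and 30.4% higher, and 14.0% and 8.4% in all 3 fits. AG, which specifies stamens and carpels, had 14.1, 8.85 and 10.2 in the double mutant, against 136, 119 and 137 in Col-0 (-3.47 ± 0.4, adjusted p = 4.0e-07). SEP3, its partner in floral complexes, had 14.2, 39.5 and 32.5 in the double mutant, against 249.9, 282 and 263 in Col-0 (-3.28 ± 0.33, adjusted p = 7.2e-08). AP3, for petals and stamens, had 38.3, 6.1 and 9.99 in the double mutant, against 87.7, 154 and 163 in Col-0 (-3.17 ± 0.5, adjusted p = 1.6e-05), and STK, for ovules, was listed at 0 in the double mutant with 5.52, 35.4 and 30.9 in Col-0. SPL8 was called higher, at 150.2, 191 and 136 in the double mutant, against 46, 47.4 and 65.2 in Col-0 (1.58 ± 0.28, adjusted p = 7.0e-05). Of 21 genes of tapetum, the nurse tissue of pollen, and of pollen itself, 11 were lower and 3 higher, and 10 lower and none higher in all 3 fits. Pollen-coat proteins were among the lower ones. GRP19 had 60.6, 17.5 and 23.7 in the double mutant, against 299, 293 and 426 in Col-0 (-3.46 ± 0.4, adjusted p = 4.3e-07), and EXL6 7.9, 6.56 and 3.28 in the double mutant, against 157, 109 and 101 in Col-0 (-4.19 ± 0.45, adjusted p = 1.3e-07). GRP16 and PPME1 were listed at 0 in the double mutant, while Col-0 had 23.5, 23.2 and 32 for GRP16 and 26.5, 13.9 and 3.55 for PPME1. LAP6 and TKPR1, enzymes of sporopollenin synthesis, were called higher in the plain fit. LAP6 had 309.9, 323 and 295 in the double mutant, against 122, 60.1 and 29.1 in Col-0 (2.35 ± 0.37, adjusted p = 1.8e-05), and TKPR1 292, 309 and 315 in the double mutant, against 95.1, 104 and 97.5 in Col-0 (1.62 ± 0.26, adjusted p = 1.9e-05). TDF1, an early tapetum regulator and the third higher call, had 5.58, 4.97 and 0.708 in the double mutant and was listed at 0 in Col-0.

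Of 10 tested root markers of 14, 4 were higher and 2 lower, none in all 3 fits. ABCG37, an exporter of phenolics and auxin precursors, had 113, 134 and 96.3 in the double mutant and was listed at 0 in Col-0. NRT2.1, a nitrate transporter, had 95.2, 152 and 60.3 in the double mutant, against 28.8, 16.4 and 33.1 in Col-0 (1.89 ± 0.53, adjusted p = 0.004), and PHT1;1, a phosphate transporter, 25.3, 49.4 and 28 in the double mutant, against 6.35, 3.5 and 2.29 in Col-0 (2.82 ± 0.48, adjusted p = 4.1e-05). WOX5, the marker of the quiescent centre, and SHR were lower, with changes of -1.65 ± 0.66, adjusted p = 0.035 and -0.7 ± 0.16, adjusted p = 9.6e-04. Iron genes, 18 in number, were split 7 higher to 7 lower, with a median of -0.09 in the plain fit and 0.31 after the correction. Across all tested genes 30.4% were called higher and 32.1% lower. BTS, an E3 ligase that restrains the iron deficiency response, had 6272, 8572 and 6577 in the double mutant, against 930, 738 and 535 in Col-0 (3.3 ± 0.32, adjusted p = 3.6e-08). The root uptake genes IRT1 and FRO2 had changes of -2.84 ± 0.83, adjusted p = 0.0058 and -2.4 ± 0.64, adjusted p = 0.0027. Higher beside BTS were BHLH100 (1.9), YSL3 (1.38), OPT3 (1.25), FRO3 (1.73), PYE (0.52) and FRD3 (2.51), with BTS, BHLH100 and YSL3 in all 3 fits, and with negative changes of FRO3 and PYE once the length slope was a covariate.

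Regulators of the shoot meristem and of leaf growth were called higher in 8 of 20 cases and lower in 5, and 3 higher and 2 lower in all 3 fits. The shares of all tested genes were 30.4% higher and 32.1% lower, and 8.4% and 14.0% in all 3 fits. GRF5, which prolongs cell division in leaves, had 785, 904 and 759.7 in the double mutant, against 86.6, 114 and 98.6 in Col-0 (3.03 ± 0.36, adjusted p = 4.6e-07). AS1, which keeps meristem genes off in leaves, had 1302, 1744 and 1308 in the double mutant, against 432, 453 and 374 in Col-0 (1.78 ± 0.21, adjusted p = 3.8e-07), while its partner AS2 had 51.3, 34 and 50.4 in the double mutant, against 124, 153 and 221 in Col-0 (-1.84 ± 0.33, adjusted p = 7.0e-05). The meristem genes STM and KNAT2 were lower. STM had 309, 333 and 329 in the double mutant, against 749.7, 982 and 1018 in Col-0 (-1.49 ± 0.25, adjusted p = 3.4e-05), and KNAT2 45.9, 41.7 and 27.1 in the double mutant, against 108, 127 and 113 in Col-0 (-1.61 ± 0.32, adjusted p = 2.1e-04). TCP4 and LOB were lower, with changes of -0.63 ± 0.15, adjusted p = 0.001 and -0.86 ± 0.31, adjusted p = 0.022, and LOB stood at 0.50 with the length slope as a covariate. AS2, STM and LOB were not called in that fit.

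Mitotic genes were called higher in 5 of 22 cases and lower in 9, with none higher and 4 lower in all 3 fits, and a median of -0.14 that the correction turned to 0.23. Among all tested genes 30.4% were called higher and 32.1% lower. CYCA1;1, a mitotic cyclin, had 288, 263 and 222 in the double mutant, against 785, 679 and 747 in Col-0 (-1.52 ± 0.24, adjusted p = 1.4e-05), and CYCA2;1 changed by -1.49 ± 0.55, adjusted p = 0.024. CDC20.1, an activator of the anaphase-promoting complex, had 501, 319 and 551 in the double mutant, against 164, 126 and 88.8 in Col-0 (1.85 ± 0.31, adjusted p = 3.8e-05), with 1.6 as the change of its near-identical copy CDC20.2. The cyclins CYCB1;2, CYCB2;3 and CYCB2;4 changed by 1.07, 0.92 and 0.78. With the length slope as a covariate CDC20.2, CYCB2;3 and CYCB2;4 had changes of -0.13, -0.34 and -0.17. Core histone genes were lower in 19 of 24 cases and higher in none. With the length slope as a covariate 7 were higher and 10 lower. Their median transcript is 844.5 bp, 7 were lower in all 3 fits, and the median moved from -0.99 to -0.23 with the correction. HTA12 had 93.5, 118 and 119 in the double mutant, against 643, 703 and 867 in Col-0 (-2.73 ± 0.2, adjusted p = 6.4e-10), and AT2G28720 1002, 925 and 936 in the double mutant, against 4177, 4184 and 4482 in Col-0 (-2.16 ± 0.19, adjusted p = 8.3e-09). HTA2 and AT5G10390 changed by -1.73 ± 0.26, adjusted p = 9.4e-06 and -1.58 ± 0.2, adjusted p = 9.2e-07, and HTA2 was not called in all 3 fits.

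Clock genes were divided. CCA1, LHY, PRR9, RVE8, RVE4, LNK1, LNK2 and CDF1 were called lower, and BOA, TOC1, ELF3, ELF4, LUX, PRR5, GI, FKF1 and CDF2 higher in the plain fit, although GI, LUX, PRR5 and FKF1 had negative changes in at least 1 adjusted fit. In the circadian clock, CCA1 and LHY act near dawn and repress evening genes, and the evening complex of ELF3, ELF4 and LUX represses day genes. Of 20 members 8 were lower, all in 3 fits, and 9 higher, 3 in all 3. Calls over all tested genes were 32.1% lower and 30.4% higher, and 14.0% and 8.4% in all 3 fits. The correction called 10 clock genes lower and 6 higher, where it called 26.9% and 31.6% of all genes. CCA1 had 33.4, 33.5 and 28.1 in the double mutant, against 499.7, 545 and 361 in Col-0 (-3.83 ± 0.55, adjusted p = 5.2e-06). LHY had 26.6, 23.8 and 12.6 in the double mutant, against 206, 217 and 159.6 in Col-0 (-3.2 ± 0.41, adjusted p = 1.4e-06). PRR9, a morning pseudo-response regulator, had 12.4, 17.4 and 4.87 in the double mutant, against 1034, 849 and 973 in Col-0 (-6.39 ± 0.51, adjusted p = 2.3e-09), and CDF1, a morning repressor of CO, had 11.8, 3.8 and 12.1 in the double mutant, against 462, 504 and 546 in Col-0 (-5.76 ± 0.38, adjusted p = 1.8e-10). RVE8, RVE4, LNK1 and LNK2, which together activate evening genes, changed by -2.08 ± 0.33, adjusted p = 1.6e-05, -1.48 ± 0.15, adjusted p = 6.5e-08, -1.83 ± 0.34, adjusted p = 1.1e-04 and -1.62 ± 0.34, adjusted p = 3.9e-04. BOA, a close relative of LUX, had 1379, 1361 and 1233 in the double mutant, against 56.7, 122 and 67.7 in Col-0 (4.07 ± 0.21, adjusted p = 5.6e-12), though a gene on the other strand covers 45.9% of its exon bases. TOC1, an evening repressor of CCA1, had 9679.7, 12028 and 10269 in the double mutant, against 1381, 2026 and 1779 in Col-0 (2.64 ± 0.21, adjusted p = 2.0e-09), and ELF4 changed by 0.73 ± 0.3, adjusted p = 0.041. With BOA these were the higher calls in all 3 fits. ELF3 had 3768, 4064 and 3857 in the double mutant, against 585, 617 and 509 in Col-0 (2.77 ± 0.4, adjusted p = 5.1e-06), and LUX, PRR5, FKF1 and CDF2 changed by 1.19, 1.41, 1.46 and 1.13. RVE1, a relative of CCA1, PRR7, a relative of PRR9, and ZTL, a relative of FKF1, were not called. RVE1 had 126, 112 and 89.5 in the double mutant, against 138, 99.4 and 134 in Col-0. The list's median was 0.49 in the plain fit and -0.51 after the correction. GI was called higher by 1.31 ± 0.41, adjusted p = 0.0087 in the plain fit and stood at -1.06 after the correction. No source used here gives the hour of harvest, so a difference in phase and a difference in level cannot be told apart. The BOA window is shown for its evening element, in capitals and read on the other strand (chr5:24003638-24003887, plus strand).
BOA: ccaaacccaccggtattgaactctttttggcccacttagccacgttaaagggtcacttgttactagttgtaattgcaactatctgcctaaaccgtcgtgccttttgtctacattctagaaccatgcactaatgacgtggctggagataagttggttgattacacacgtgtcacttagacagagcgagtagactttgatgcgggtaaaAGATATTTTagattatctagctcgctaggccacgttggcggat
An evening element lay in 25% of 20 clock windows and in 2.48% of all windows, and a G-box in 40% and 7.01%.

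**Figure D4:**
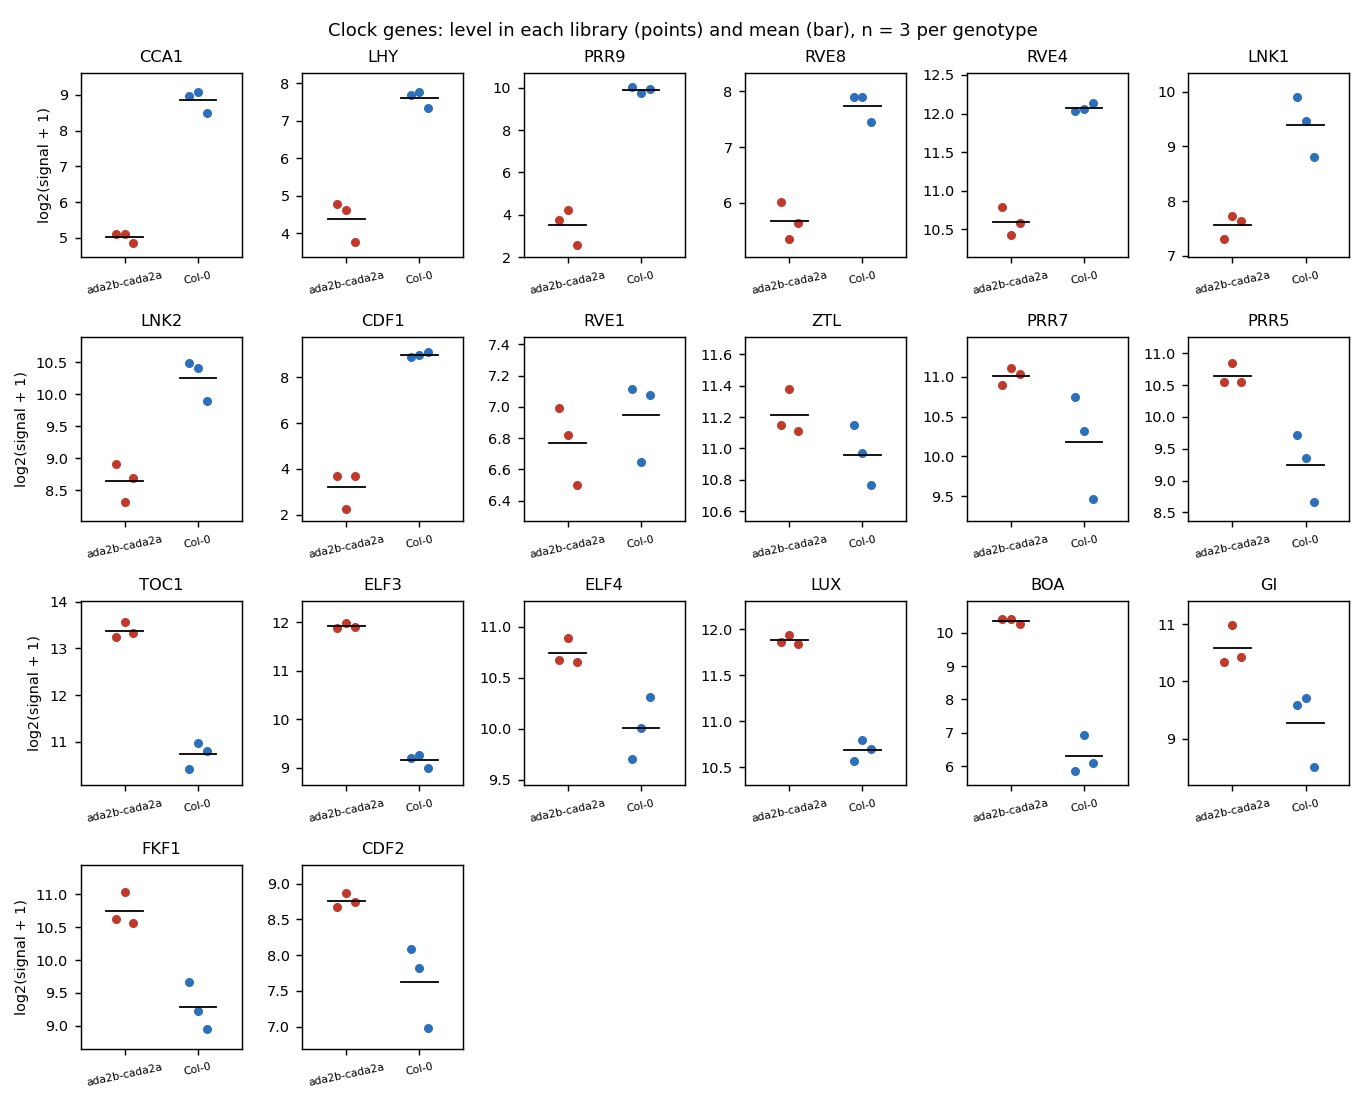
Level of 20 clock genes as log2(signal + 1) in each of the 3 ada2b-cada2a libraries and each of the 3 Col-0 libraries (points), with the mean as a bar. The 8 genes from CCA1 to CDF1 are lower in ada2b-cada2a, RVE1, ZTL and PRR7 were not called, and the 9 from PRR5 to CDF2 are higher in ada2b-cada2a.

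Light signalling genes were lower in 13 of 18 cases and higher in 4, and 9 lower and 2 higher in all 3 fits. Shares over all tested genes were 32.1% lower and 30.4% higher, and 14.0% and 8.4% in all 3 fits. BBX30, BBX31 and ELIP2 were listed at 0 in the double mutant, and had signal in every Col-0 library, BBX30 101, 74.1 and 136, BBX31 64.1, 63.4 and 54.3, and ELIP2 40.6, 35.8 and 41. HYH, the close relative of the light-signalling factor HY5, had 11.1, 7.33 and 3.23 in the double mutant, against 127, 138 and 172 in Col-0 (-4.27 ± 0.4, adjusted p = 2.4e-08). The photoreceptor PHYA had 5157, 8303 and 5214 in the double mutant, against 1049.6, 906 and 559 in Col-0 (2.9 ± 0.32, adjusted p = 2.3e-07). PIF3, a factor that phytochromes inactivate, had 894, 814 and 883 in the double mutant, against 235, 279.9 and 165 in Col-0 (1.96 ± 0.23, adjusted p = 5.6e-07). PHYB and COP1 were called higher by 2.06 ± 0.35, adjusted p = 3.5e-05 and 1.14 ± 0.21, adjusted p = 1.1e-04, not in all 3 fits, and PHYB stood at -0.43 after the correction.

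Genes of senescence and sugar starvation were higher in 10 of 20 cases and lower in 2, and 8 higher and none lower in all 3 fits. DIN2, a starvation-induced glucosidase, had 265, 459.9 and 309 in the double mutant and was listed at 0 in Col-0. BCAT2 and MCCA break down branched-chain amino acids. BCAT2 had 4421, 3765 and 4584 in the double mutant, against 314, 283 and 337 in Col-0 (3.77 ± 0.18, adjusted p = 1.8e-12), and MCCA 3941, 5221 and 4212 in the double mutant, against 366, 326 and 153 in Col-0 (4.06 ± 0.41, adjusted p = 5.7e-08). ANAC016, a promoter of senescence, had 897, 1087 and 1043 in the double mutant, against 81, 42.8 and 36.7 in Col-0 (4.29 ± 0.4, adjusted p = 2.5e-08). The senescence regulators NAP and WRKY53 were called lower in the plain fit. NAP had 462, 488 and 485 in the double mutant, against 1543, 1389 and 1398 in Col-0 (-1.59 ± 0.19, adjusted p = 7.5e-07), and WRKY53 changed by -0.57 ± 0.2, adjusted p = 0.018. After the correction, with changes of -0.4 and -0.22, neither was called. Chaperones and heat factors were higher in 6 of 17 cases and lower in 4, and 5 higher and 2 lower in all 3 fits. For all tested genes the shares were 30.4% higher and 32.1% lower, and 8.4% and 14.0% in all 3 fits. BIP3, a chaperone of the endoplasmic reticulum induced by unfolded proteins, had 418, 571 and 496 in the double mutant, against 8.55, 5.9 and 12.1 in Col-0 (5.69 ± 0.38, adjusted p = 1.8e-10). HSP70-2 had 3330.4, 5311 and 3555 in the double mutant, against 184, 276 and 142 in Col-0 (4.36 ± 0.33, adjusted p = 1.2e-09), and HSP90.1 979, 1732 and 1067 in the double mutant, against 90.7, 92.1 and 63.3 in Col-0 (3.9 ± 0.33, adjusted p = 6.6e-09). The small heat shock protein HSP18.2 had 4.11, 0 and 1.68 in the double mutant, against 217, 171 and 159 in Col-0 (-6.24 ± 0.66, adjusted p = 1.2e-07), and HSFB2A changed by -2.01 ± 0.24, adjusted p = 6.4e-07. HSFA3 and MBF1C, lower with changes of -0.78 ± 0.33, adjusted p = 0.043 and -0.73 ± 0.22, adjusted p = 0.0071, had positive changes in 1 of the adjusted fits each (0.60 and 0.54).

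Chromatin genes include many with long transcripts. Of 22 genes of small RNA pathways and DNA methylation 20 were called higher and 1 lower, but their median transcript is 4027.5 bp. Of all tested genes from 3000 bp on, 80.3% were called higher. After the correction 4 of the 22 list genes were higher and 5 lower, and the list's median moved from 2.37 to 0.16. ROS1 and DML2, DNA demethylases, were higher in all 3 fits. ROS1 had 1639, 3424 and 1643 in the double mutant, against 194, 199 and 187 in Col-0 (3.43 ± 0.34, adjusted p = 4.8e-08), and DML2 584, 1237 and 642 in the double mutant, against 80.1, 83 and 67.7 in Col-0 (3.32 ± 0.39, adjusted p = 4.4e-07). DML3, their relative, was lower, at 8.3, 11.4 and 15.5 in the double mutant, against 61.9, 53.1 and 45.5 in Col-0 (-2.13 ± 0.37, adjusted p = 5.1e-05). NRPE1, the largest subunit of RNA polymerase V, and AGO5 changed by 4.13 ± 0.55, adjusted p = 2.1e-06 and 3.74 ± 0.82, adjusted p = 5.3e-04 in the plain fit, not in all 3. Of 21 other histone acetyltransferases and deacetylases 15 were higher and 2 lower, 4 higher in all 3 fits. Over all tested genes 30.4% were called higher and 32.1% lower, and 8.4% higher in all 3 fits. The correction called 11 of the 21 higher and 1 lower, and moved their median from 1.22 to 0.42. With the length slope as a covariate 7 were higher and 4 lower. HAC1, a p300/CBP-type acetyltransferase, had 3262, 7129.7 and 3794 in the double mutant, against 225, 243 and 156 in Col-0 (4.44 ± 0.5, adjusted p = 2.6e-07). HAC2, of the same type, had 171, 361 and 173 in the double mutant and was listed at 0 in Col-0. HAF1, HDA18, HAF2 and HD2D had changes of 4.56, 4.65, -2.99 and -1.48, none of them in all 3 fits.

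Beyond the lists, the gene that fell most was CIPK20, a protein kinase of calcium signalling, with 0.653, 1.59 and 3.52 in the double mutant, against 2676, 1871 and 1939.7 in Col-0 (-9.63 ± 0.53, adjusted p = 1.4e-11). AT3G55240, annotated as a plant protein of unknown function, and AT5G37940, a zinc-binding dehydrogenase, changed by -9.37 ± 0.51, adjusted p = 1.3e-11 and -9.37 ± 0.56, adjusted p = 4.1e-11, and AT2G15020 was listed at 0 in the double mutant with 771, 659.6 and 603 in Col-0. On the other side RLP7, a receptor-like protein, had 822, 1020.4 and 827 in the double mutant, against 0.0357, 1.24 and 6.46 in Col-0 (8.42 ± 0.67, adjusted p = 2.3e-09). CHX17, a cation exchanger, had 3090.4, 3901 and 3245 in the double mutant, against 8.67, 15.1 and 30.7 in Col-0 (7.64 ± 0.44, adjusted p = 2.7e-11), and AT2G44240 changed by 8.0 ± 0.43, adjusted p = 1.0e-11. AT1G74140, a rhomboid-related protease, AT5G16900, a leucine-rich repeat kinase, and GAT1_2.1, a glutamine amidotransferase, were listed at 0 in Col-0, while the double mutant had 689.6, 512 and 747 for AT1G74140, 289.7, 315 and 294 for AT5G16900 and 241, 251 and 273 for GAT1_2.1. The largest gains of signal in absolute terms were those of CAT3, a catalase, and PEN3, a transporter of defence compounds. CAT3 had 199952, 251111 and 199689 in the double mutant, against 77071, 69878 and 38608 in Col-0 (1.86 ± 0.32, adjusted p = 3.8e-05). PEN3 had 87368, 143637 and 96647 in the double mutant, against 12429.8, 11109 and 7343 in Col-0 (3.41 ± 0.35, adjusted p = 7.9e-08). The RNA-binding protein GRP7, the chaperone HSC70-1 and the ubiquitin gene UBQ10 followed, with changes of 0.82 ± 0.26, adjusted p = 0.011, 2.2 ± 0.38, adjusted p = 4.5e-05 and 2.2 ± 0.32, adjusted p = 5.9e-06. PEN3 and GRP7 were called in all 3 fits, the other 3 of these 5 were not.

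The contrast with ada2b-c asks what the second mutation goes with. It called 2202 genes higher in the double mutant (9.45%) and 1444 lower (6.2%). ADA2A itself had 7.35, 1.49 and 1.6 in the double mutant, against 779, 847 and 822 in ada2b-c (-7.76 ± 0.48, adjusted p = 3.0e-09). Its change against Col-0 was -4.11, so part of this difference lies in a signal of ada2b-c above that of Col-0. Antenna genes, all lower than in Col-0, were higher in the double mutant than in ada2b-c in 17 of 19 cases and lower in none, with a median difference of 0.84. LHCB3 had 15984, 20670 and 14505 in the double mutant, against 6494, 6615 and 6745 in ada2b-c (1.35 ± 0.18, adjusted p = 3.5e-05). Photosystem and Calvin cycle genes were higher in 25 of 35 cases and lower in none. After the correction, which called 12.3% of all genes higher and 11.3% lower, 16 of 19 and 23 of 35 were higher.

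Auxin response genes were higher in the double mutant than in ada2b-c in 20 of 24 cases and lower in none, with a median difference of 1.88 (19 higher and 1 lower after the correction). SAUR23 had 59.5, 82.6 and 64 in the double mutant, against 8.43, 16 and 3.69 in ada2b-c (2.92 ± 0.43, adjusted p = 9.1e-05). GH3.3 had 1346, 1970.5 and 1432 in the double mutant, against 2033, 1927 and 2149 in ada2b-c (-0.38 ± 0.43, adjusted p = 0.62). Of auxin synthesis and transport genes 11 of 19 were higher, of expansin and wall genes 17 of 24, of mitotic genes 10 of 22, of anthocyanin and flavonol genes 9 of 14 and of floral organ genes 7 of 14. None of these 5 lists had a member called lower. XTH6 had 880.2, 832 and 789.6 in the double mutant, against 632, 624 and 634 in ada2b-c (0.4 ± 0.13, adjusted p = 0.042). Salicylic acid, clock and small RNA lists had 2, 1 and 1 members called higher and 1, 2 and 2 called lower.

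Single loci stood far apart between these genotypes. AT3G01345 had 6.95, 6.48 and 7.7 in the double mutant, against 1867, 1653 and 1751 in ada2b-c (-7.77 ± 0.55, adjusted p = 1.3e-08), and its mean was 3.81 in ada2b-cspc and 15 in Col-0. HCS2, a biotin-protein ligase, had 0, 0 and 3.6 in the double mutant, against 139, 167 and 209 in ada2b-c (-6.68 ± 0.79, adjusted p = 1.0e-05). AT1G10300, a nucleolar GTP-binding protein, AT1G10980 and AT5G56810 were higher, by 6.13 ± 0.91, adjusted p = 1.1e-04, 6.09 ± 0.38, adjusted p = 3.0e-09 and 5.59 ± 0.59, adjusted p = 2.6e-06. AT1G10980 had 169, 157 and 120.2 in the double mutant, against 1.38, 3.3 and 0 in ada2b-c.

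Few genes were called between the double mutant and ada2b-cspc, which share ada2b-c. There were 46 higher in the double mutant (0.198%) and 63 lower (0.271%). A gene that was not called is not shown to be equal in both. Genes named for this contrast were chosen after their values were seen. ADA2A had 7.35, 1.49 and 1.6 in the double mutant, against 571, 505 and 662 in ada2b-cspc (-7.25 ± 0.48, adjusted p = 2.2e-08). Its signal in ada2b-cspc, too, was above that of Col-0, against which the change was -4.11. Of the tapetum and pollen list 8 of 21 members were higher in the double mutant and none lower, with a median difference of 1.87. Against ada2b-c 9 of this list were higher and 1 lower. GRP19, EXL4, ACOS5, ATA7 and GRP14 were listed at 0 in all libraries of ada2b-cspc and of ada2b-c. In the double mutant GRP19 had 60.6, 17.5 and 23.7 (adjusted p = 3.4e-07). EXL4, a pollen-coat lipase, had 35.1, 22.6 and 30.8 (adjusted p = 3.4e-07). ACOS5, which starts sporopollenin synthesis, had 50.5, 20.2 and 13.3 (adjusted p = 0.0014). GRP17, EXL6 and LAP5 were higher by 4.52 ± 0.54, adjusted p = 9.5e-05, 2.25 ± 0.45, adjusted p = 0.021 and 3.02 ± 0.59, adjusted p = 0.017. Outside the list ATA27, AT1G20130, AT1G68875 and AT1G66850 were likewise listed at 0 in ada2b-cspc and ada2b-c, while the double mutant had 66.2, 41.4 and 51.2 for ATA27, 34, 33.4 and 39.3 for AT1G20130, 45.5, 36 and 11.6 for AT1G68875 and 36.8, 21 and 24.7 for AT1G66850. Of 14 tested floral organ genes 1 was called higher and none lower, with a median difference of 0.19. The called one was AG, with 14.1, 8.85 and 10.2 in the double mutant, against 3.3, 1.38 and 0 in ada2b-cspc (2.45 ± 0.4, adjusted p = 0.0041). These genes mark anthers and flowers, and whether the sampled plants differed in flowers was not tested.

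**Figure D5:**
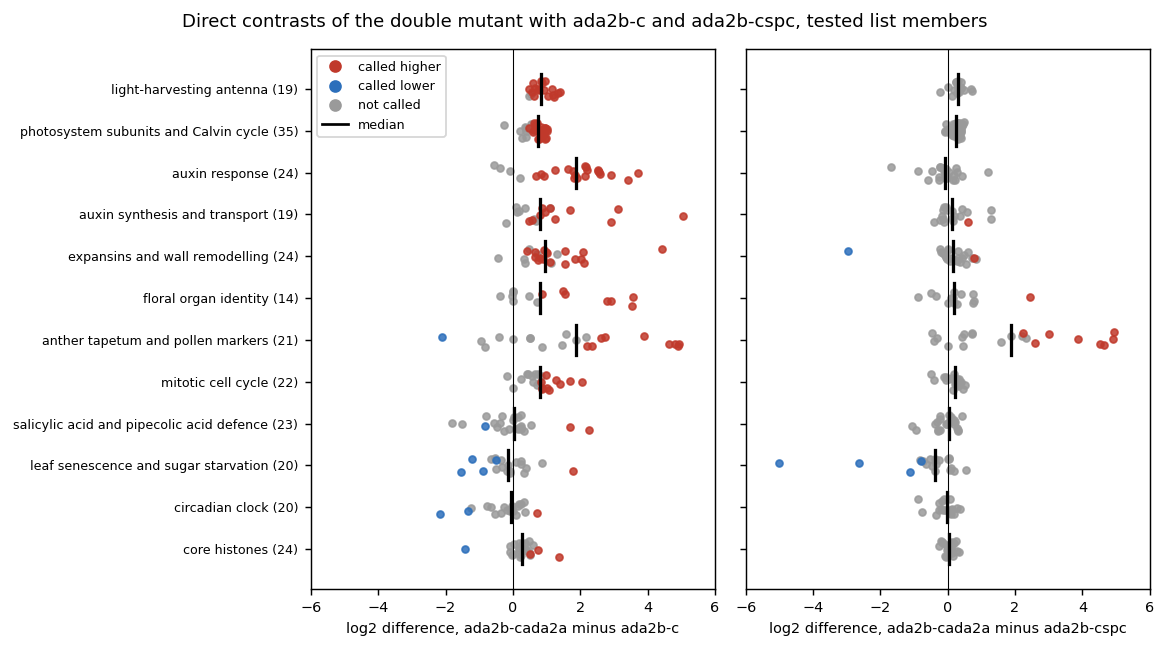
Difference of every tested member of 12 lists, as log2 of double mutant minus ada2b-c on the left and minus ada2b-cspc on the right, with calls in colour and medians as bars. Against ada2b-c the auxin response list has a median of 1.88, and against ada2b-cspc the tapetum and pollen list is the one with 8 members called higher.

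Some genes of senescence were lower in the double mutant than in ada2b-cspc. Of the senescence list 4 of 20 were called lower and none higher. Against ada2b-c 4 of this list were also called lower, and 1 higher. SAG12, a cysteine protease and marker of late senescence, had 14.2, 9.72 and 8.43 in the double mutant, against 457, 383 and 291 in ada2b-cspc (-5.01 ± 0.56, adjusted p = 4.2e-05). DIN2 had 265, 459.9 and 309 in the double mutant, against 2048, 2245 and 2008 in ada2b-cspc (-2.64 ± 0.47, adjusted p = 0.0081). NAP had 462, 488 and 485 in the double mutant, against 981, 1015 and 1136 in ada2b-cspc (-1.12 ± 0.19, adjusted p = 0.0064), and DIN1 changed by -0.8 ± 0.18, adjusted p = 0.046. The polygalacturonases PGAZAT and ADPG1, which loosen walls where organs are shed, were lower as well. PGAZAT had 1.23, 11.8 and 5.06 in the double mutant, against 369, 344 and 359.7 in ada2b-cspc (-6.01 ± 0.88, adjusted p = 0.0011), and ADPG1 0, 5.16 and 1.66 in the double mutant, against 37.3, 40 and 34.6 in ada2b-cspc (-3.91 ± 0.82, adjusted p = 0.032). AT2G01422, a non-coding RNA, had 4.94, 0 and 1.67 in the double mutant, against 6179.7, 5904 and 4792 in ada2b-cspc (-11.12 ± 0.61, adjusted p = 1.6e-09), the largest difference of the contrast among genes whose libraries do not overlap. CSLB03, TPS03 and JRG21 were lower, with changes of -3.3 ± 0.68, adjusted p = 0.026, -3.27 ± 0.52, adjusted p = 0.003 and -3.17 ± 0.39, adjusted p = 1.2e-04. GolS2 changed by -1.62 ± 0.36, adjusted p = 0.043, and EXLB1, listed at 0 in the double mutant, had 8.66, 7.1 and 5.25 in ada2b-cspc. Further list members called higher were MAH1, COR15B, PIN4 and XTH24. MAH1 had 41.1, 50.9 and 27.1 in the double mutant, against 0, 2.96 and 3.2 in ada2b-cspc (3.95 ± 0.41, adjusted p = 1.5e-05). COR15B and XTH24 changed by 0.88 ± 0.19, adjusted p = 0.039 and 0.78 ± 0.15, adjusted p = 0.017, and PIN4, by 0.61 ± 0.12, adjusted p = 0.023, was no longer called after the correction.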

How the data were processed

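Per the labels' protocols, total RNA from 30-day-old plants was sequenced as 150-bp read pairs. The submitters' processing notes name TAIR10, HISAT2, edgeR and bcl2fastq, without versions, counting program or strandedness. The deposited values are a signal per gene that the authors had adjusted between libraries in a way not stated. They are not whole counts, so the count test first planned was replaced by limma 3.58.1 in R 4.3.3, with a variance trend, 1 mean per genotype over 21 libraries and log2(signal + 1).

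Transcript length and GC content came from TAIR10.1. The correction subtracts a spline with 5 degrees of freedom, fitted to 18559 genes with a mean of at least 30. The limma fit was tested on simulated data. With a length slope added to the double mutant, the plain fit called many unchanged genes, and the fit after the correction called few. The added slope was linear in log2 of length, a shape the correction is built to remove. Simulated spread was the same in every genotype, unlike that of the libraries. The outcome therefore does not show how well the correction suits the deposited values. Without that slope, most simulated log2 changes of 1 were missed by both. Tables and figures were made with Python 3.11.15, pandas 2.3.3 and matplotlib 3.10.9.

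The comparison and the lists were chosen with earlier results of these data known. Named genes are GCN5, ADA2A and ADA2B, up to 4 most changed called members of each list, members called against their list, and the most changed genes without overlap (8 higher and 8 lower by log2 change, 5 and 5 by difference of means, 4 and 4 against ada2b-c). One gene so chosen is not reported here. Genes named only for ada2b-cspc, and TOC1, ELF3, ELF4, LUX, PRR5, PRR7, FKF1, CDF2, RVE1, ZTL, GH3.1, YUC2, YUC5, YUC6, YUC8 and YUC9, were added after their values were seen. Promoter windows were read from the RefSeq TAIR10.1 sequence. Alternatives were other filters, pseudocounts, scalings, length adjustments, fits of only the groups compared, a replicate block and leaving out libraries.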

Additional observations from a re-analysis of the deposited data

How the results depend on the processing

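Against Col-0 the count of higher calls, 7085, fell to 3993 with the length slope as a covariate, and was within 1.5 times under each other alternative. The count of lower calls, 7485, was within 1.5 times under all of them. Leaving out each library in turn gave 6292 to 6806 higher and 6642 to 7216 lower calls. Same-numbered libraries of the double mutant and Col-0 had residuals correlating at -0.23, 0.18 and 0.18. Over all pairs of genotypes such correlations ran from -0.30 to 0.68. These values do not settle whether libraries of the same number belong together. The replicate block gave 7291 higher and 7728 lower calls. Equal column totals turned the split of 7085 higher to 7485 lower into 8769 to 5266.

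Between the double mutant and ada2b-c, 3646 genes were called in all. The correction gave 5492, the covariate 6965, the correction with the replicate block 6075 and a fit of only these genotypes 8861, while 2169 changed by at least 1. Without single libraries the count was 2265 to 2534. Between the double mutant and ada2b-cspc the 109 calls became 211 with the correction, 344 with the covariate, 245 with the correction and the replicate block, and 56 to 72 without single libraries.

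Of the named genes, some changed sign against Col-0. After the correction, and equally with the replicate block added, changes were -0.12 for GCN5, 0.19 for SGF29A, 0.56 for TAF10, 0.24 for AT3G27100, -1.06 for GI, -0.39 for TOE2, -0.43 for PHYB, 0.54 for MBF1C, 0.68 for XTH24, -0.39 for LUX and -0.63 for ZTL. With the covariate they were 0.34 for TAF10, 0.89 for AT3G27100, -0.17 for JAZ1, -0.89 for GI, 0.50 for LOB, -0.13 for CDC20.2, -0.34 for CYCB2;3, -0.17 for CYCB2;4, 0.60 for HSFA3, -0.12 for PYE, -0.14 for FRO3, 0.11 for XTH24, -0.48 for PRR5, -1.13 for PRR7 and -0.012 for FKF1. Equal totals gave 0.016 for XTH24. Of the 241 named genes, 15 kept their direction after the correction but lost their call, and 55 did so with the covariate. The causes were not tested. The call against Col-0 was lost without at least 1 library for GCN5, TAF10, AT3G27100, AT1G68875, ATA27, CDC20.2, CYCA2;1, CYCB2;3, CYCB2;4, ELF4, FRD3, GI, HEL, HSFA3, LFY, LOB, MAF3, MYB94, PGAZAT, PYE, SAG12, TDF1, WOX5, WRKY53 and XTH24.

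With 3 libraries a genotype and unknown depth, small changes of genes with low signal could not be told from spread.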
